A study of Mus musculus with 3 samples.

Results

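The hypoxia-inducible factors (HIFs) and the enzymes that tie them to oxygen were followed as 9 genes, chosen by name: Hif1a, Epas1, Arnt, Egln1, Egln2, Egln3, Hif1an, Vhl and Bnip3. All 9 were found among the 18287 genes listed, once each, and all 9 had a mean normalized count of 10 or more. RNA came from mouse aortic endothelial cells bought as a primary culture. The control group was untreated, and a second group received glucose oxidase (5 mU/mL, 30 min). This enzyme oxidises the glucose of the medium, uses up oxygen in doing so and yields hydrogen peroxide. The last group received the same glucose oxidase with ethyl-2-hydroxybenzylamine (Et2HOBA, a scavenger of reactive lipid aldehydes, 0.2 mM, 24 h). Each group was 1 library. The labels do not give the order of the exposures or the time from exposure to harvest, and no cells given Et2HOBA alone were analysed here.

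A HIF is a pair of proteins: an oxygen-regulated alpha subunit, made from Hif1a or Epas1 (which encodes HIF-2 alpha), and the stable beta subunit Arnt. With oxygen present, prolyl hydroxylases (Egln1, Egln2 and Egln3, also called PHD enzymes) mark the alpha subunit, the von Hippel-Lindau protein Vhl recognises the mark, and a ubiquitin ligase sends the subunit for destruction, while the asparaginyl hydroxylase Hif1an blocks its contact with coactivators. HIF activity is set largely by the stability of these proteins, which RNA sequencing does not measure. In blood vessels Hif1a is best known for switching cells to glycolysis, and Epas1 for vessel growth and stability.

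Many HIF target genes carry a short hypoxia response element, whose core reads ACGTG or GCGTG, and the factor's own regulators Egln1 and Egln3 and the mitophagy receptor gene Bnip3 are textbook targets. The 250 bases before the annotated start were searched on both strands in the RefSeq promoters of build GRCm38.p6, where 8 of the 9 genes matched, all but Epas1. ACGTG was present in 5 of these 8 genes (Hif1a, Egln1, Egln2, Egln3 and Bnip3), and in 16.6% of all 32851 promoters of that length. GCGTG was present in 4 of the 8 (Arnt, Egln1, Egln2 and Bnip3), and in 28.2% of all promoters. Neither core was found in the windows of Vhl and Hif1an. Members were counted by gene and the background by promoter. The 8 genes have 9 promoters, as Egln2 has a second one, which holds GCGTG but not ACGTG. A match says only that the letters are there. The windows of 4 genes are shown because they belong to the 2 members with the largest gains in the doubly treated library (Hif1a and Bnip3) and to 2 members that were lower in both treated libraries (Egln2 and Egln3), so that the presence of the core can be read against the direction of the RNA. Capitals mark ACGTG or its reverse complement CACGT; where both overlap they form CACGTG, as in Hif1a and Bnip3.
Hif1a, plus strand, chr12:73907617-73907866: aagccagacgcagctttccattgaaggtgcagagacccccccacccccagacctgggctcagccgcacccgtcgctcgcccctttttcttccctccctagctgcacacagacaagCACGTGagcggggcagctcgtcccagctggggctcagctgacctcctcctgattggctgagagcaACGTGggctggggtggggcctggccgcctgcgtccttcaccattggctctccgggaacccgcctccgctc
Bnip3, minus strand, chr7:138909520-138909756: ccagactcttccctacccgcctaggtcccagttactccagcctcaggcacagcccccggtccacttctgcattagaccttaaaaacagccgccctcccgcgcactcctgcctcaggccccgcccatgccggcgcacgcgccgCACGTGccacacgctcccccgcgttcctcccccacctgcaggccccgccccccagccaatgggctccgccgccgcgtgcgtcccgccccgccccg
Egln2, minus strand, chr7:27166803-27167052: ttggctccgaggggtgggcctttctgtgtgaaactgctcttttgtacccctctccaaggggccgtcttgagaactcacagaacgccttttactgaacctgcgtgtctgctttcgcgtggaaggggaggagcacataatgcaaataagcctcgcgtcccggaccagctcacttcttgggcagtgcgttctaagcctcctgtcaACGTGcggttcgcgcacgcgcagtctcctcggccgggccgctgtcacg
Egln3, minus strand, chr12:54203875-54204124: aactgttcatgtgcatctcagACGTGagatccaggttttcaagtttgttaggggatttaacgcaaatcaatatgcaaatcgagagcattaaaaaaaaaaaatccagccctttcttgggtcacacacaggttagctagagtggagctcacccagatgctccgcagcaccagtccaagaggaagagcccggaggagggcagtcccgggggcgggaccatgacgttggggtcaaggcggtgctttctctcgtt
In Hif1a the matches began 135 and 70 bases before the RefSeq start, in Bnip3 108, in Egln2 48 and in Egln3 229 bases before it. The Hif1a window lies inside the deposited gene interval, which begins farther upstream, and holds no annotated exon of Hif1a. The Bnip3 window was trimmed to the bases outside annotated Bnip3 exons. Among these 4 genes, chosen by direction, the core was thus found both in members that were higher and in members that were lower after treatment. Vhl, which was also lower in both treated libraries, held neither core, and Epas1, lower in both as well, could not be searched.

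The libraries held between 35005089 and 40212212 reads. All 12 endothelial markers checked were listed, with a summed normalized count of 401573 (control), 293267 (glucose oxidase) and 295872 (both agents). Of 6 smooth muscle and pericyte markers listed out of 8 the sum was 64.9, 134 and 188. Fibroblast markers summed to 133, 1416 and 2738, almost all of it Pdgfra (107, 1325 and 2821 reads), with Col1a2, Dcn and Lum not listed. Leukocyte markers summed to 8146, 17770 and 26858, almost all of it Cd68 (8215, 17067 and 27799 reads), with Ptprc, the pan-leukocyte gene, not listed. The leukocyte marker Lyz2 went the other way, with 186, 76 and 86 reads. The fibroblast marker Col1a1 did not follow Pdgfra, with 28, 30 and 23 reads. The only epithelial marker listed of 4 was Krt8, at 1, 5 and 6 reads. These sums moved with the groups, and their part in the results below was not tested. In bulk RNA, fewer cells of a type and less RNA per cell cannot be told apart.

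Since each group is 1 library, differences have no check against replicates and conditions could not be tested. Reads were divided by a size factor per library to give normalized counts, log2 ratios were taken of normalized count plus 10, and fold differences were taken without that addition. Intervals are exact Clopper-Pearson intervals at 95% on the reads of 2 libraries or 2 genes, and cover counting error only. Counts of the glucose oxidase library were computed back from its log2 differences, while the others were used as the authors gave them. Both comparisons with control share 1 control library.

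None of the 9 genes differed by 1 log2 unit or more in any of the 3 comparisons, while 12.7% of all genes did so after glucose oxidase, 14.7% with Et2HOBA added, and 8.55% between the treated libraries. Log2 ratios of the 9 lay between -0.36 and 0.20 after glucose oxidase, between -0.47 and 0.70 with both agents against control, and between -0.19 and 0.50 between the treated libraries. Their medians were -0.11, -0.03 and 0.07, beside -0.01, 0.00 and 0 for all listed genes. At a limit of 0.5, none of the 9 passed after glucose oxidase (33.8% of all genes), 2 passed with both agents, Hif1a and Bnip3 (40.1%), and none between the treated libraries (25.5%). With total-count scaling Hif1a, Epas1, Egln2 and Vhl, but not Bnip3, passed that limit with both agents. Because most of these genes were abundant, small gaps were outside counting error: the interval excluded equal levels for 8 of 9 genes after glucose oxidase (60.3% of all genes), 6 of 9 with both agents (64.0%) and 8 of 9 between the treated libraries (54.7%). These intervals do not hold the spread between cultures.

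**Figure D1:**
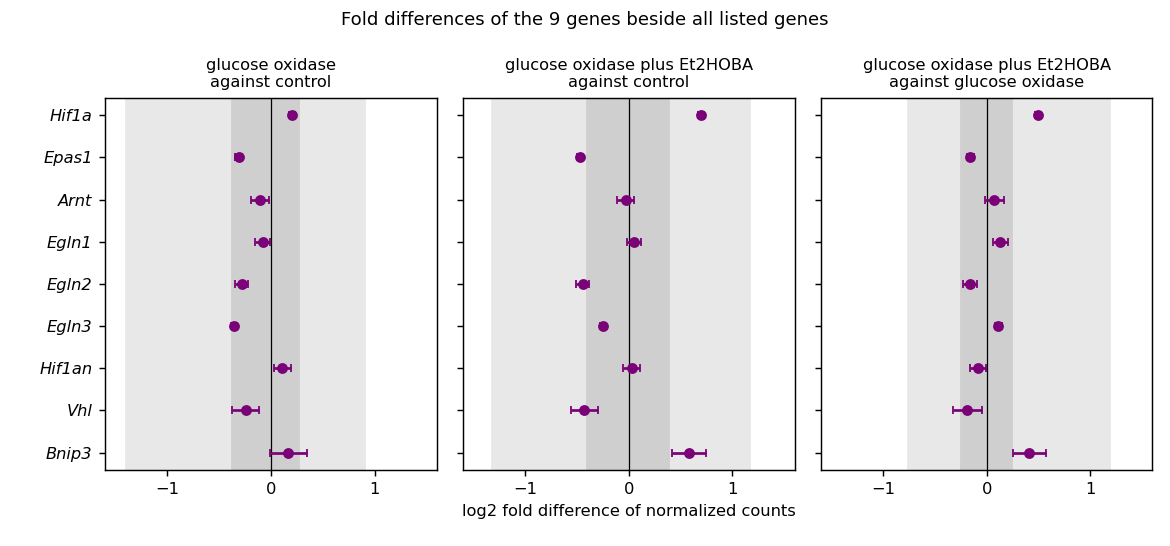
Log2 fold differences of normalized counts (horizontal axis) for the 9 genes in the 3 comparisons, 1 library per group; bars are exact 95% counting intervals, the dark band holds the middle 50% of all 18287 genes by log2 ratio and the light band the range from the 5th to the 95th percentile. No member passes 1 in either direction, and Hif1a and Bnip3 lie above the dark band in the middle and right panels.

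The alpha subunits differed from control in opposite directions. Hif1a (ENSMUSG00000021109.13, GRCm38 chromosome 12, 73901375 to 73947530) was read 16901 times in control, 18176 times in the glucose oxidase library and 27585 times with both agents, giving normalized counts of 16377, 18828 and 26559. It was highest in the doubly treated library and lowest in control. Its level was 1.15-fold that of control after glucose oxidase (95% interval 1.13 to 1.17) and 1.62-fold with both agents (1.59 to 1.65), and 1.41-fold between the treated libraries (1.38 to 1.44). Of all listed genes, 26.3% lay at least as far from control as Hif1a did in the doubly treated library. In the authors' deposited table the Hif1a difference was 0.20 for glucose oxidase and 0.69 for both agents.

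Epas1 (ENSMUSG00000024140.10, chromosome 17, 86753700 to 86833410) had 18886, 14223 and 13710 reads in the same order, and normalized counts of 18301, 14733 and 13200. It was highest in control and lowest with both agents. The level after glucose oxidase was 0.805 of control (0.788 to 0.823), and with both agents it was 0.721 of control (0.706 to 0.737). Between the treated libraries the fold was 0.896 (0.875 to 0.917), so most of the gap to control was already present without Et2HOBA, whereas for Hif1a the larger step lay between the treated libraries.

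The balance of the alpha transcripts can be read inside each library, where no scaling between libraries enters. Per kb of merged exon, Hif1a stood at 0.848 of Epas1 in control (0.831 to 0.866), at 1.21 after glucose oxidase (1.19 to 1.24) and at 1.91 with both agents (1.87 to 1.95). By this measure Epas1 was the more abundant alpha transcript in control and Hif1a in both treated libraries. Merged exons span 5896 bases in Hif1a and 5590 in Epas1, while their longest transcripts have 4724 and 5516. The order in control can therefore change with the length used, which the intervals do not cover. Against control the Hif1a to Epas1 ratio was 1.43 times as high after glucose oxidase and 2.25 times as high with both agents, and these 2 values do not depend on gene length. Hif1a made up 45.9%, 54.8% and 65.6% of the summed alpha transcripts per kb. The sum itself was 6052, 5829 and 6866 normalized counts per kb, lowest after glucose oxidase.

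The beta subunit Arnt (ENSMUSG00000015522.18, chromosome 3, 95434388 to 95497240) had 2266, 1970 and 2231 reads, or normalized counts of 2196, 2041 and 2148. The glucose oxidase library was the lowest, at 0.929 of control (0.874 to 0.988), and with both agents the fold of 0.978 (0.922 to 1.04) was not distinguishable from equal levels at this depth. Per kb of merged exon, alpha transcripts exceeded Arnt by 22.1-fold in control, 22.9-fold after glucose oxidase and 25.6-fold with both agents. These values depend on the length used. The merged exons of Arnt span 8007 bases over 11 annotated transcripts, while its longest transcript has 4325. The paralog Arnt2, which can pair with alpha subunits and is better known from neurons, had 364, 1106 and 1199 reads. It was 3.25-fold higher than control after glucose oxidase (2.88 to 3.67) and 3.27-fold higher with both agents (2.91 to 3.69), and its level did not differ between the treated libraries beyond counting error (1.01-fold, 0.928 to 1.09). Arnt2 was the only one of 5 further HIF subunits and partners past 1 log2 unit, in both comparisons with control. Among all genes 12.7% and 14.7% passed that limit in these comparisons. Cited2, which competes with HIF alpha for its coactivator, was 1.67-fold higher after glucose oxidase (1.57 to 1.78) and 1.53-fold with both agents (1.43 to 1.63). The coactivators Ep300 and Crebbp lay within 0.13 log2 units of 0 in all comparisons, with log2 ratios from -0.08 to 0.12. The third alpha subunit gene Hif3a had 1479, 1604 and 1424 reads.

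Among the prolyl hydroxylases, Egln3 carried most of the transcript. Egln3 (ENSMUSG00000035105.5, chromosome 12, 54178981 to 54203860) was read 22285, 16249 and 18903 times in the same order, giving normalized counts of 21594, 16832 and 18200. Control was the highest library and glucose oxidase alone the lowest, and the doubly treated library lay between them. After glucose oxidase the level was 0.779 of control (0.764 to 0.795), with both agents 0.843 (0.827 to 0.859), and the fold between the treated libraries was 1.08 (1.06 to 1.10). With total-count scaling the log2 ratio of Egln3 with both agents was -0.40 in place of -0.25, and 0.02 in place of 0.11 between the treated libraries. In the authors' deposited table for glucose oxidase, Egln3 had a value of -0.35, the lowest of the 9 genes.

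Egln2 (ENSMUSG00000058709.11, chromosome 7, 27158658 to 27166802) had 4668, 3585 and 3452 reads, and normalized counts of 4523, 3714 and 3324. Its order across libraries was that of Epas1, with control highest: 0.821 of control after glucose oxidase (0.786 to 0.858) and 0.735 with both agents (0.703 to 0.768). Egln1 (ENSMUSG00000031987.6, chromosome 8, 124908587 to 124949324), the main oxygen sensor for HIF in most cells, had 3188, 2822 and 3320 reads, and normalized counts of 3089, 2923 and 3197. It was 0.946 of control after glucose oxidase (0.899 to 0.996) and 1.03-fold with both agents (0.985 to 1.09), an interval that includes equal levels. With both agents, Egln2 and Egln3 were thus below control, while the interval of Egln1 held equal levels; with total-count scaling its log2 ratio was -0.10.

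Per kb of merged exon, Egln3 made up 76.6% of the summed prolyl hydroxylase transcripts in control, 74.7% after glucose oxidase and 76.7% with both agents. Egln2 made up 15.3%, 15.7% and 13.3%, and Egln1 8.12%, 9.61% and 9.98%. The summed level was 10587, 8463 and 8914 normalized counts per kb, lower in both treated libraries. Egln2 exceeded Egln1 per kb by 1.88-fold in control (1.80 to 1.97), by 1.63-fold after glucose oxidase (1.55 to 1.71) and by 1.33-fold with both agents (1.27 to 1.40). These intervals do not overlap.

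**Figure D2:**
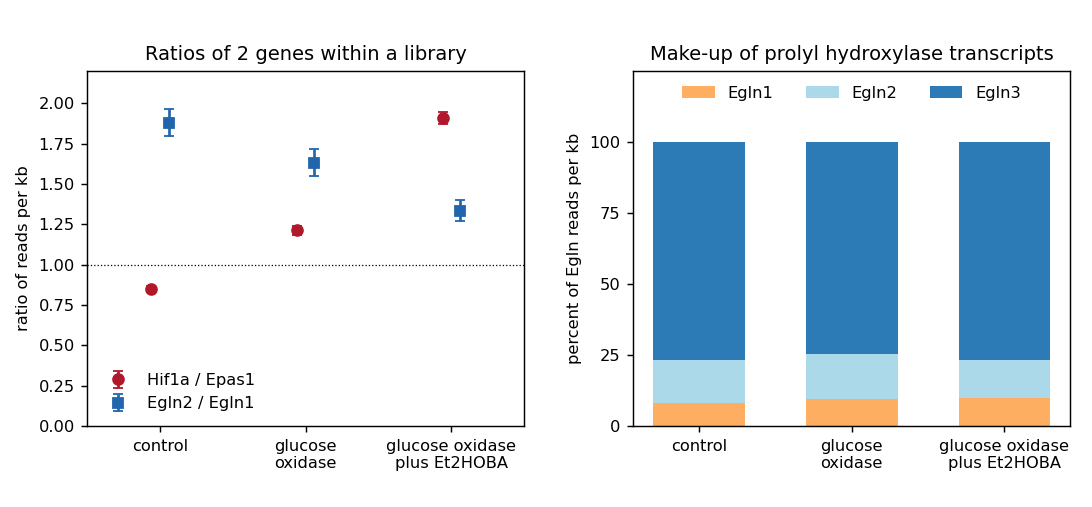
Left, ratio of reads per kb of merged exon of 2 genes within each library, Hif1a over Epas1 and Egln2 over Egln1, with exact 95% counting intervals; the dotted line marks equal levels. Right, percent of the summed Egln reads per kb contributed by each Egln gene; Hif1a over Epas1 goes from 0.848 in control to 1.91 with both agents, while Egln3 keeps between 74.7% and 76.7%.

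The asparaginyl hydroxylase Hif1an (ENSMUSG00000036450.4, chromosome 19, 44562850 to 44576274) had 2473, 2498 and 2535 reads, or normalized counts of 2396, 2588 and 2441, with glucose oxidase alone the highest. The fold was 1.08 after glucose oxidase (1.02 to 1.14) and 1.02 with both agents (0.963 to 1.08), the latter with a log2 ratio of -0.12 under total-count scaling. Vhl (ENSMUSG00000033933.13, chromosome 6, 113623959 to 113631633) had 1086, 859 and 811 reads, or normalized counts of 1052, 890 and 781. Control was the highest library and the doubly treated one the lowest. Vhl stood at 0.846 of control after glucose oxidase (0.772 to 0.926) and at 0.742 with both agents (0.677 to 0.813). Within a library, the reads of Hif1a relative to those of Vhl were 1.36 times the control ratio after glucose oxidase and 2.19 times with both agents.

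The partners of Vhl in its ligase and other regulators of HIF turnover formed a list of 14 genes. None passed 1 log2 unit in any comparison, where 12.7%, 14.7% and 8.55% of all genes did. At 0.5, 1 was higher after glucose oxidase, beside 13.5% of all genes. With both agents 4 were higher and 1 lower at that limit, beside 19.2% and 20.9% of all genes. The medians were 0.11 after glucose oxidase and 0.13 with both agents. The elongin subunits Elob and Eloc, which join Vhl to the ligase, had log2 ratios of -0.01 and 0.03 after glucose oxidase, and 0.10 and 0.15 with both agents. The values farthest from 0 after glucose oxidase were those of Rack1, a scaffold that promotes oxygen-independent HIF-1 alpha loss (log2 ratio 0.59), and Siah1a (0.48). With both agents they were Siah2, a ubiquitin ligase that removes prolyl hydroxylases (0.97; 388, 501 and 773 reads), and its relative Siah1b (-0.93; 356, 273 and 183 reads). With total-count scaling 1 of the 14 passed the limit with both agents, and the median was -0.02. Elob shares 35.2% and Siah1b 13.4% of its 50-base stretches with other genes, as does part of Siah1a, so their reads may be split.

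Other enzymes that, like the Egln proteins and Hif1an, need oxygen and 2-oxoglutarate were examined as a further group. Of 23 listed, none passed 1 log2 unit after glucose oxidase and 1 did with both agents. This was P4ha1, a collagen prolyl hydroxylase, with 3692, 5562 and 8139 reads and a fold of 2.19 with both agents (2.11 to 2.28); with total-count scaling its log2 ratio was 0.98. Among all genes 12.7% and 14.7% passed in these comparisons. The count with both agents was 2 with a pseudocount of 1, total-count scaling, or size factors from protein-coding genes or the 2 libraries compared. On the lower side, Asph (-0.96) and the DNA demethylase Tet1 (203, 137 and 97 reads, log2 ratio -1.0) lay nearest to the limit. Tet1 is named here after its value was seen. With total-count scaling the 2 genes past the limit were Asph and Tet1, both lower, and P4ha1 was under it. Over the scales tried, the lowest log2 ratios with both agents were -1.11 for Asph and -1.14 for Tet1. The histone demethylase Kdm6b had a log2 ratio of 0.60 after glucose oxidase. Between the treated libraries the aspartyl hydroxylase Asph (9972, 7337 and 5167 reads) had a log2 ratio of -0.61, and P4htm, at 44, 65 and 33 reads, one of -0.89. Medians were 0.13, 0.19 and 0.02 in the 3 comparisons. P4ha1, P4ha2, Plod2 and Kdm3a also belong to the HIF target lists below, so P4ha1 is counted past the limit in both groups.

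Bnip3 encodes a mitochondrial outer membrane protein that marks mitochondria for autophagy. Bnip3 (ENSMUSG00000078566.8, chromosome 7, 138890836 to 138909519) had 504, 530 and 758 reads, or normalized counts of 488, 549 and 730. Control and glucose oxidase were close, and the doubly treated library stood above both. The fold after glucose oxidase, 1.12 (0.993 to 1.27), was not distinguishable from equal levels at this depth, and with both agents it was 1.49 (1.33 to 1.68). Between the treated libraries it was 1.33 (1.19 to 1.49), a log2 ratio of 0.40, which was 0.19 on the scale of the authors' deposited values. Of the 50-base stretches in the longest Bnip3 transcript 21.9% occur in another annotated gene, mainly 2 pseudogenes, Gm16439 (not listed) and Gm6532 (5, 4 and 10 reads). Hif1a shared 2.18% with the overlapping model Gm49321 (not listed), and the other members shared none. An antisense gene, Gm15283, overlaps Hif1a exons by 330 bases and had 42, 56 and 43 reads.

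Bnip3l, the nearest relative of Bnip3 and also a mitophagy receptor, had log2 ratios of 0.15 and 0.30 against control, and Bnip3 stood at 0.324, 0.329 and 0.393 of Bnip3l per kb in the 3 libraries. The interval of the last (0.363 to 0.426) lay above that in control (0.294 to 0.357). Of 15 mitophagy genes listed, only the autophagy adaptor Sqstm1 passed 1 log2 unit, with 23377, 53136 and 75166 reads and log2 ratios of 1.28 and 1.68 against control. That is 1 of 15 in each comparison with control, where 12.7% and 14.7% of all genes passed. Between the treated libraries the values farthest from 0 were Optn at 0.49 and Sqstm1 at 0.39. The medians of this list, -0.02, 0.08 and 0.08, were near those of all genes.

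Ordered by normalized count per kb, the 9 genes in control ran from Egln3 (8112) through Epas1 (3274), Hif1a (2778), Egln2 (1615), Egln1 (860), Hif1an (363), Vhl (351) and Arnt (274) to Bnip3 (216). Hif1an and Vhl, neighbours in this order, did not differ beyond counting error (ratio 1.03, 0.962 to 1.11). After glucose oxidase Hif1a (3193) stood above Epas1 (2636), and the last 2, Arnt (255) and Bnip3 (242), did not differ beyond counting error (1.05, 0.955 to 1.16). With both agents the order was Egln3 (6837), Hif1a (4505), Epas1 (2361), Egln2 (1187), Egln1 (889), Hif1an (369), Bnip3 (322), Arnt (268) and Vhl (261), and the last 2 did not differ beyond counting error (1.03, 0.95 to 1.12). By this measure Bnip3 moved from last to seventh and Vhl from seventh to last. All these levels are per kb of merged exon, and places in the order depend on that length. For Arnt it is 8007 bases, while its longest transcript has 4325. The intervals cover counting error only, and an order by other lengths was not tested.

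**Figure D3:**
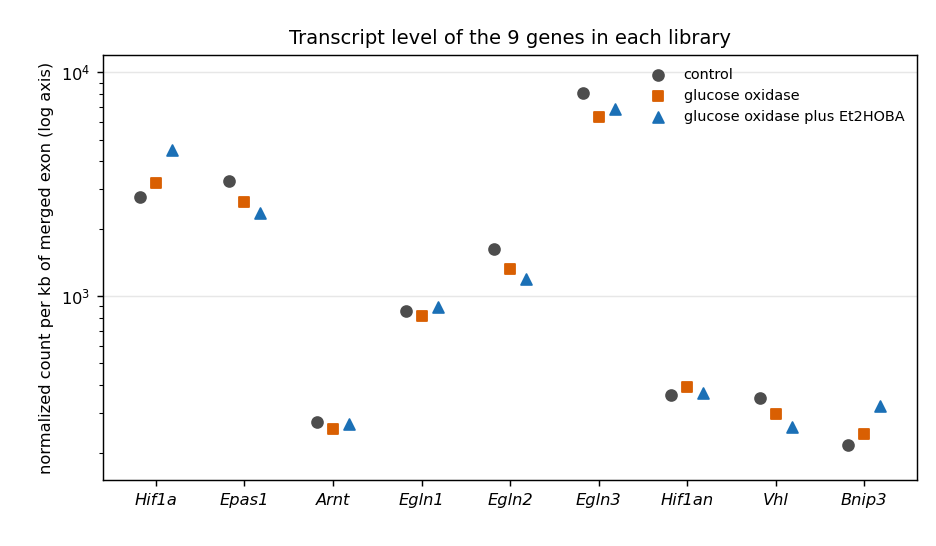
Normalized count per kb of merged exon (log axis) of the 9 genes, 1 point per library, with no error bar because each group is 1 library. By this measure Egln3 is the highest in every library (6323 to 8112), and Hif1a and Epas1 change order between control and the treated libraries.

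Textbook HIF target genes differed in both directions, with more of them higher. In 2 lists of such targets with 46 genes listed, 8 were higher and 4 lower by 1 log2 unit or more after glucose oxidase, beside 4.07% and 8.60% of all genes. With both agents 15 were higher and 6 lower, beside 6.66% and 8.04%. Between the treated libraries 2 were higher and none lower, beside 6.39% and 2.15%. At 0.5 log2 units, 15 were higher and 8 lower after glucose oxidase (13.5% and 20.3% of all genes), 22 and 11 with both agents (19.2% and 20.9%), and 12 and 5 between the treated libraries (13.6% and 12%). After glucose oxidase the share of targets that were lower was thus near that of all genes at 1 log2 unit, and under it at 0.5. Between the treated libraries the share that were higher was under that of all genes at 1 log2 unit, and above it at 0.5. The medians were 0.28, 0.49 and 0.27, beside -0.01, 0.00 and 0 for all genes. Of the 46, 16 share 50-base stretches with other genes, and over those that share none the median after glucose oxidase was 0.16. These genes also answer to other stress pathways, and nothing here measures HIF binding. The carbonic anhydrases Car9 and Car12, classic markers of hypoxia, were not listed.

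Of 18 glycolysis and pH genes listed, the glucose transporter gene Slc2a1 had the largest gain, with 2504, 7825 and 14196 reads, 3.34-fold above control after glucose oxidase (3.19 to 3.50) and 5.63-fold with both agents (5.40 to 5.88). The hexokinase gene Hk2 had 832, 1627 and 3012 reads and the phosphofructokinase gene Pfkp 742, 1615 and 2528, with log2 ratios of 1.83 and 1.75 with both agents. Pgk1, at 2.28-fold with both agents, shares 68.0% of its stretches with other genes. Other members were lower. Pfkfb3, an activator of glycolysis, had 3948, 2362 and 1908 reads and a log2 ratio of -1.05 with both agents. The following 2 were chosen after their values were seen. Pdk1, a standard HIF-1 target, had 4383, 3136 and 2924 reads, and Ldha, lactate dehydrogenase, had 27727, 20869 and 22647. Their log2 ratios with both agents were -0.59 and -0.30. The list median was 0.37 after glucose oxidase, 0.52 with both agents and 0.23 between the treated libraries; over genes with no shared stretch the first was 0.24.

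Of 28 vascular and stress targets listed, 5 were higher and 4 lower after glucose oxidase, beside 4.07% and 8.60% of all genes. With both agents 11 were higher and 5 lower, beside 6.66% and 8.04%. Ero1l, an oxidase of the endoplasmic reticulum, was 9.25-fold above control (8.74 to 9.79). Hmox1, the heme oxygenase gene, had 8325, 34083 and 60660 reads, with a log2 ratio of 2.85 with both agents. The stress gene Ndrg1 was 6.06-fold above control (5.77 to 6.35) and Vegfa, which encodes the main growth factor of vessels, 4.24-fold (3.98 to 4.52). Ndrg1 was among the targets past the limit between the treated libraries, at 2.00-fold (1.94 to 2.07). The lower genes include receptors of endothelial cells, chosen here after their values were seen. The VEGF receptor gene Kdr had 61640, 27584 and 24227 reads, and stood at 0.391 of control with both agents (0.385 to 0.396). The angiopoietin receptor gene Tek stood at 0.247 (0.234 to 0.261). Apln, a peptide of sprouting vessels, had 5772, 2661 and 1750 reads and stood at 0.301 (0.285 to 0.318). Kdr and Tek are also endothelial markers, whose summed level was lower in both treated libraries. Other genes of that marker list went the other way: the endothelial nitric oxide synthase gene Nos3 had 30246, 47041 and 74692 reads and Emcn 5373, 6333 and 7936. Cdh5, which encodes VE-cadherin, had 55360, 45034 and 63665.

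**Figure D4:**
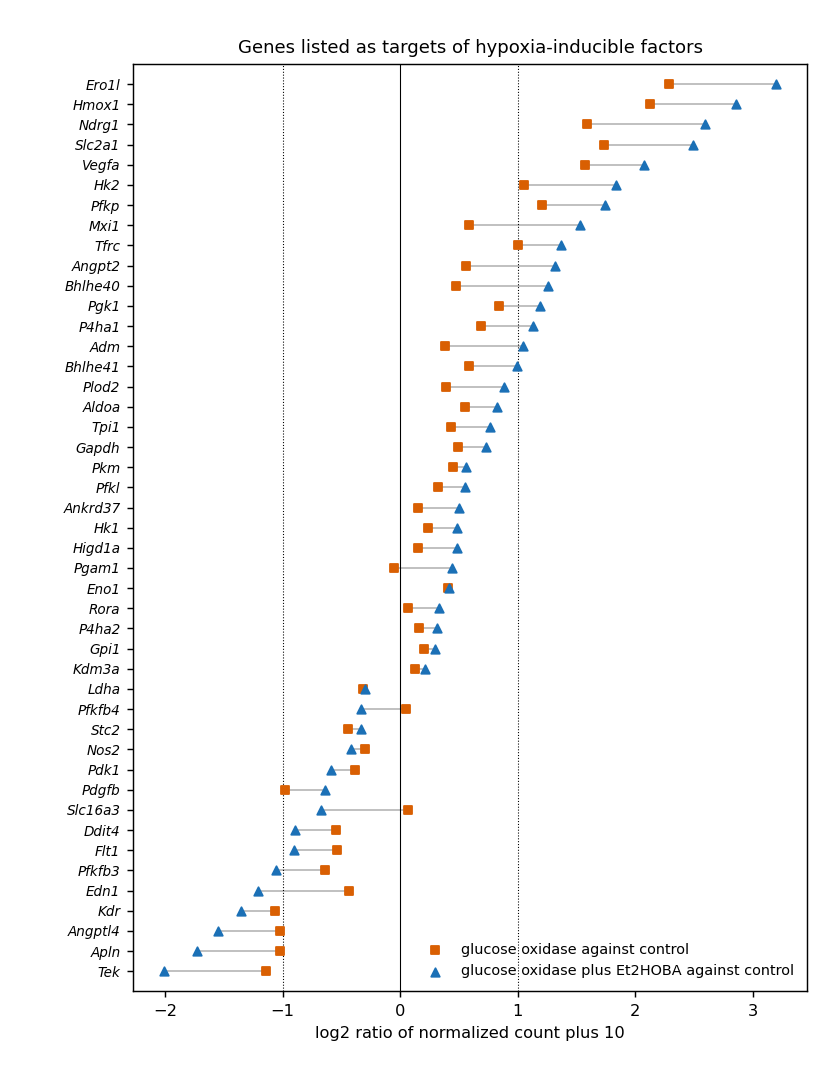
Log2 ratio of normalized count plus 10 against control for 45 of the 46 listed HIF target genes, after glucose oxidase (squares) and with both agents (triangles), ordered by the latter; dotted lines mark 1 log2 unit either way. The values with both agents run from -2.01 (Tek) to 3.20 (Ero1l), and both comparisons share the same control library.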

How the data were processed

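Polyadenylated RNA was sequenced from 3 libraries, 1 per group, from stranded libraries per the labels' protocols. The submitters' processing notes name STAR, featureCounts and mm10; versions, annotation and strand setting are not given in the sources used here. The deposited table for both agents against control held raw read counts, log2-like normalized values and their difference, per the file headers. The authors deposited the other comparisons as log2 differences without a header, of 18287 genes for glucose oxidase against control and of 7 for the treated libraries; none of the 7 is a member.

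Glucose oxidase counts were recovered by inverting the deposited log2 differences, each the gap between inverse hyperbolic sines of root counts scaled by a library constant. Of 18275 genes joined by symbol, 100% gave a value within 0.01 of a whole number, against 3.31% after raising every control count by 1 read. A further 12 genes with doubled names, Aldoa among them, were placed by whole reads. The recovery was tested on simulated data. Gene positions matched GENCODE M21 (GRCm38) for all 17878 IDs of the same version. Analyses used Python 3.11.15, pandas 2.3.3, numpy 2.4.6 and scipy 1.17.1, and figures matplotlib 3.10.9. Median-of-ratios size factors over all genes were 1.03, 0.965 and 1.04 for control, glucose oxidase and both agents.

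The members, the gene lists and the limits of 1 and 0.5 log2 units were chosen with earlier results of these data known. Named list genes are at most 5 per list and comparison past the limit of 1, by size, or else the 2 largest, leaving out genes under 50 reads in every library; only part is printed, and 1 counted target is not reported here by name. Genes with the most similar pattern were to be named for members past the limit, and no member passed it. No columns of other samples were present.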

Additional observations from a re-analysis of the deposited data

How the results depend on the processing

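No member passed 1 log2 unit in any comparison under a pseudocount of 1, total-count scaling, size factors from protein-coding genes or from the 2 libraries compared, the scale of the deposited values, a limit of 2, or either restriction of the gene set. With a limit of 0.5 the count was 2 for both agents against control (Hif1a and Bnip3), and 0 for the other comparisons. At that limit total-count scaling gave 4 (Hif1a, Epas1, Egln2 and Vhl, without Bnip3), and size factors from protein-coding genes or from the 2 libraries compared gave 1 (Hif1a) between the treated libraries; the cause was not tested. Total-count scaling shifted the median of all genes by -0.13 with both agents, and turned Egln1 to -0.10 and Hif1an to -0.12 against control, and Arnt to -0.02 between the treated libraries. The other members kept their sign in each comparison under the scales tried.

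Counts of all genes past the limit were 2317, 2688 and 1563 in the 3 comparisons, and 952, 1744 and 339 over genes with no shared 50-base stretch. A pseudocount of 1 gave 4243, 4494 and 3311, and the authors' deposited scale 734, 1768 and 43. They were 6175, 7332 and 4670 at a limit of 0.5, and 526, 695 and 391 at a limit of 2. HIF targets past the limit of 1 were 12, 21 and 2. At 0.5 they were 23, 33 and 17, and at 2 they were 2, 7 and 0. Between the treated libraries the 2 became 5 with a pseudocount of 1, and 1 with total-count scaling, on the deposited scale or over genes with no shared stretch. Counting error limits Bnip3 most, at 504 to 758 reads. No paired analysis was possible because each group is 1 library.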
